A study of Mus musculus with 11 samples.

Results

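Interferon response and antigen presentation genes were examined as a set of 36 named genes, found by symbol among the 53453 gene rows of the deposited table. All 36 had a row. Transcript levels came from RNA sequencing of primary neurospheres, the free-floating spheres that neural stem and progenitor cells form in culture, grown from mouse embryonic brain at E15.5. There were 6 libraries from control embryos, whose treatment label is none, and 5 from embryos labelled Klf5 overexpression. The sources used here do not give the mouse strain, nor the means or promoter by which Klf5, a Kruppel-like zinc finger transcription factor, was overexpressed. All values are TPM as deposited, a unit that corrects for transcript length and scales each library to a fixed total. It carries no read number, and sequencing depth is therefore unknown.

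Interferons are secreted proteins that bind cell surface receptors and, through JAK kinases, activate transcription factors that include STAT2 and IRF9. These factors bind interferon-stimulated response elements (ISRE) or gamma-activated sites (GAS) at target genes, and the targets include direct antiviral effectors, guanylate-binding proteins and the machinery that loads peptides onto class I molecules. Class I molecules consist of a heavy chain, such as H2-K1 or H2-D1, paired with beta-2 microglobulin, and carry peptides cut by the proteasome to the cell surface. Neural cells are known to hold most interferon-induced genes at low levels without infection or inflammation, and to raise them on exposure to interferon.

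Klf5 checked the labels. It stood between 0.371 and 1.29 TPM in the controls and between 53.6 and 93 TPM in the overexpression libraries, so every library matched its label. The rows given summed to between 814208 and 846780 TPM in the controls and between 730832 and 821967 TPM with overexpression. Only overexpression library 1 lay within the control range, and libraries 2 to 5 lay below every control. The means were 830176 TPM in controls and 784942 TPM with overexpression, and every TPM comparison carries this difference. Genes above 0 numbered 18021 to 19122 per control library and 18374 to 20882 per overexpression library. Between 17 and 20 members reached 1 TPM in a control library and between 17 and 19 in an overexpression library.

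Of the 19 members high enough to test, 6 differed between the groups, and these moved both ways. Irf1, Bst2, Ifitm2 and B2m were higher with Klf5 overexpression, by 1.40-fold to 2.27-fold in mean TPM, while Gbp3 and Gbp7 were lower, by 5.61-fold and 4.10-fold. Levels were compared as log2(TPM + 1) with limma (two-sided), the p-values were adjusted by Benjamini-Hochberg over all 13549 genes that reached 1 TPM in at least 5 libraries, and a gene was called at an adjusted p under 0.05. Differences on this scale understate the change of genes near 1 TPM. Of the 36 members, 19 passed the filter on low values and 17 did not. Among the 19 tested members 6 were called, or 31.6%, against 504 of all tested genes, or 3.72%. The members were chosen with earlier results of these data known, so these shares describe the set and do not test it. The higher count rested on single libraries: it was 2 in place of 4 without control 1, 5 or 6 or without overexpression library 1, 2 or 3, and also 2 with no filter on low values. The 4 higher members stand beside a background of 2.29% called higher, and the 2 lower members beside 1.43% called lower. In the same 6 members the libraries of the groups did not overlap, which held for 3.29% of all tested genes. The median difference of the tested members was 0.10 on the log2 scale, with 14 above 0 and 5 below, and the median of all tested genes was -0.04.

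**Figure D1:**
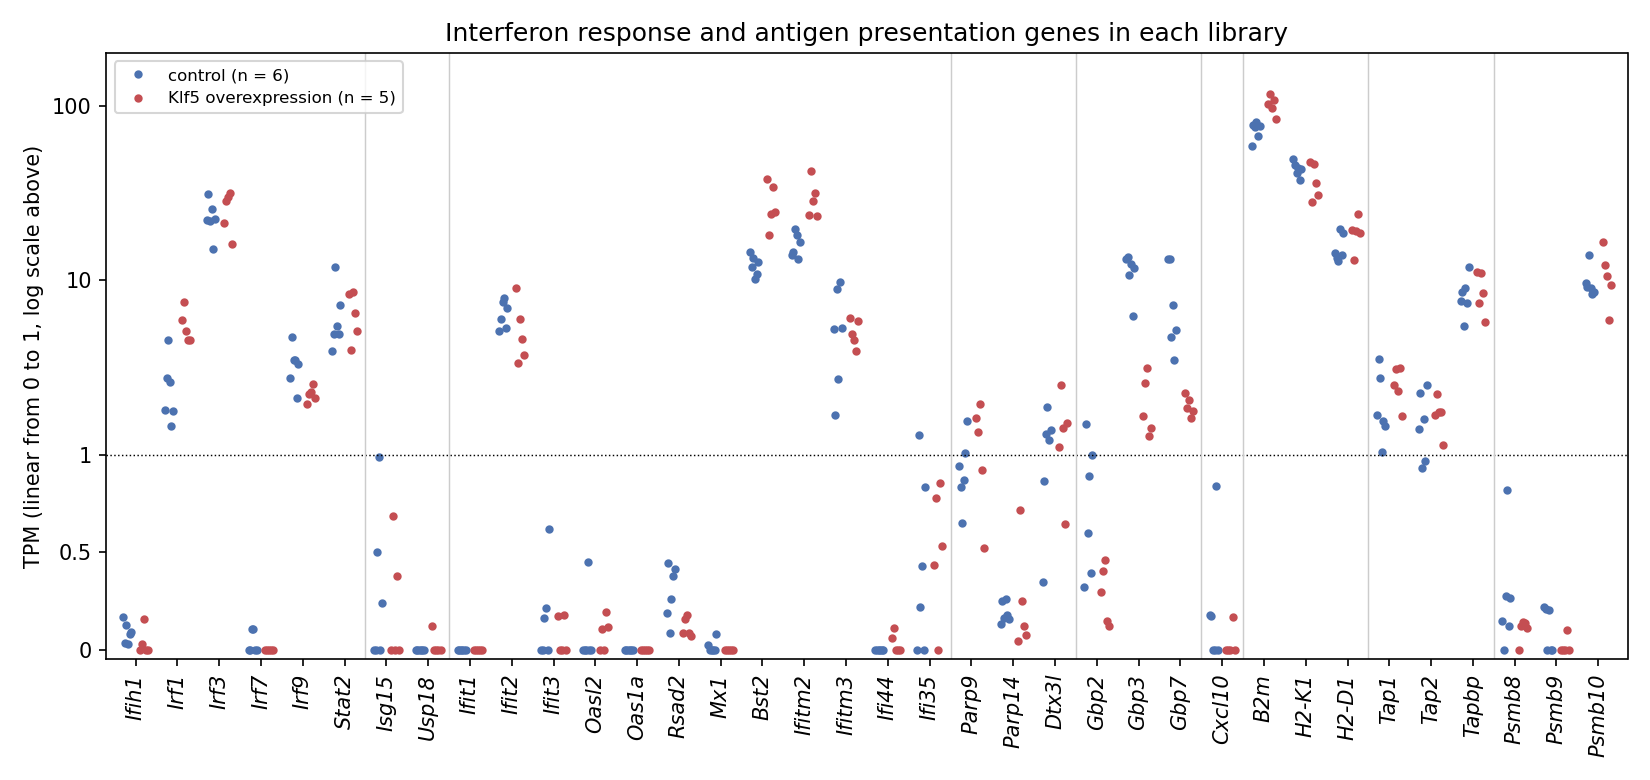
Each point is 1 library, with the 36 members in order of role along the horizontal axis and TPM on the vertical axis, which is linear from 0 to 1 and logarithmic above. The dotted line marks 1 TPM. B2m is the most abundant member, and 15 members stay under 1 TPM in every library.

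**Figure D2:**
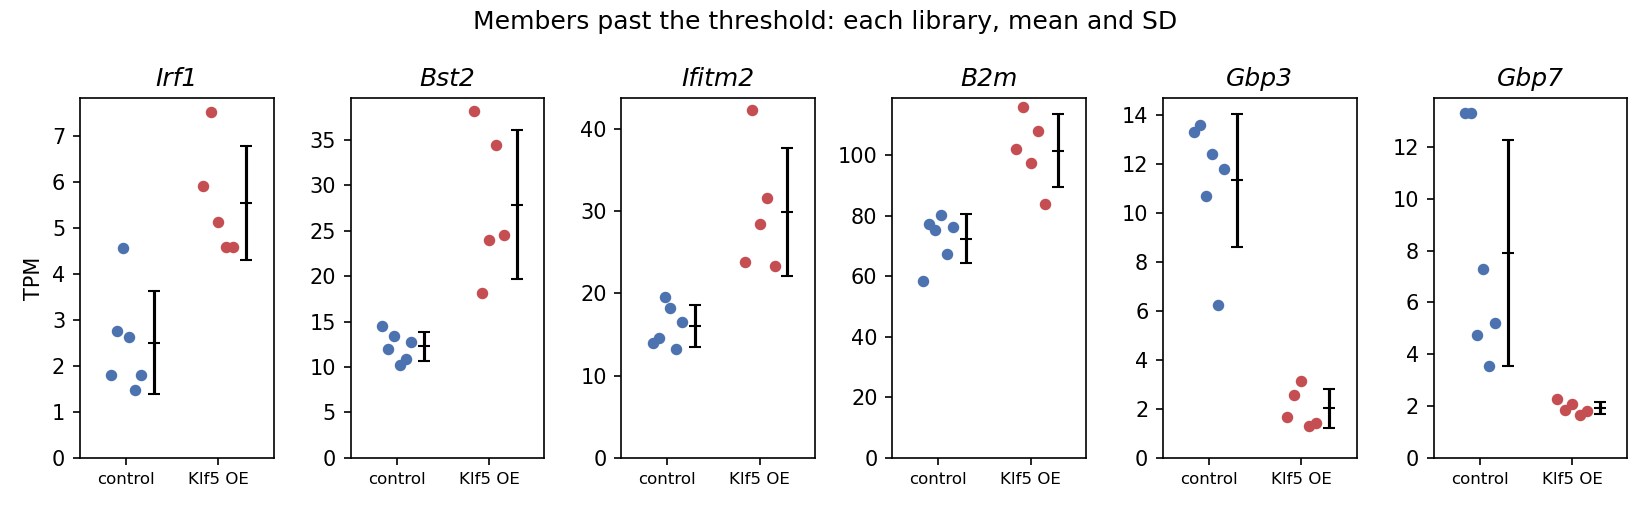
TPM of the 6 called members in each of the 6 control and 5 overexpression libraries, with the mean and SD as a bar beside the points, each panel on its own linear axis from 0. Irf1, Bst2, Ifitm2 and B2m have every overexpression library above every control, and Gbp3 and Gbp7 have every one below.

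The stretches before the start sites of the 6 called members are shown because interferon-activated factors bind such elements directly. Promoter windows of 250 bases before to 50 bases after the start site were taken from RefSeq on GRCm38.p6, where 31 of the 36 members had at least 1. The 5 members with more than 1 window were Irf1, Irf9, Ifit2, Gbp3 and H2-K1. For these, the one nearest to the annotated gene start was used and the others were not searched for members. Usp18, Mx1, Parp9, Parp14 and Tap2 had none. Each line gives the 160 bases that end at the base before the start site, 5′ to 3′ on the gene's own strand. Capitals mark matches to the ISRE core, which is GAAA, any 2 bases and GAAA, or to the GAS letters TTCNNNGAA, searched on both strands, with overlaps allowed. The stretches lie at chr3:142559884-142560043 (plus strand) for Gbp3, chr3:142530176-142530335 (plus) for Gbp7, chr8:71537473-71537632 (minus) for Bst2, chr7:140955962-140956121 (minus) for Ifitm2, chr2:122147527-122147686 (plus) for B2m and chr11:53769854-53770013 (plus) for Irf1.
Gbp3: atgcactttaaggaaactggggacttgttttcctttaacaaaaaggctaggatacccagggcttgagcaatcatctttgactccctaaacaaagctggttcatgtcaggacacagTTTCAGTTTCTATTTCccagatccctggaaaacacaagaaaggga
Gbp7: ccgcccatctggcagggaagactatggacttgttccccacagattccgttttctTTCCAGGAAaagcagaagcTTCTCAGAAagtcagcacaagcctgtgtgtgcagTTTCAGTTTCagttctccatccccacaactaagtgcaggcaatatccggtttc
Bst2: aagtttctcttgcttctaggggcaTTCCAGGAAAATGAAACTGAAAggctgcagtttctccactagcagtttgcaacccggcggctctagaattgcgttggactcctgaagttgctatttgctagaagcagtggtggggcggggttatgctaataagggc
Ifitm2: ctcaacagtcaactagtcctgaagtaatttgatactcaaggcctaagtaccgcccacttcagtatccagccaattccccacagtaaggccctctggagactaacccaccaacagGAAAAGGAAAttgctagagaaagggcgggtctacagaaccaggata
B2m: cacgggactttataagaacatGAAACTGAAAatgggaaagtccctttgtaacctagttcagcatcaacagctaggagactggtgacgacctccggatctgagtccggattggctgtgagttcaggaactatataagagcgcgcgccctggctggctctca
Irf1: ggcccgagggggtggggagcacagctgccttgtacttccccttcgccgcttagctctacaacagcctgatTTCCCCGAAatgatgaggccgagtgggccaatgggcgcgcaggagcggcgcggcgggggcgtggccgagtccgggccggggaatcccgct

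The ISRE letters were present in both genes that fell and in 3 of the 4 that rose. Gbp3 held a pair of overlapping ISRE matches, whose first bases lay 45 and 39 bases before the start, and Gbp7 held an ISRE match at 53 bases and GAS matches at 106 and 87 bases. Bst2 held overlapping ISRE matches at 130 and 124 bases, with a GAS match at 136 bases that overlaps the one at 130 bases. Ifitm2 and B2m held 1 ISRE match each, at 46 and 139 bases. Irf1 held no ISRE match in the window used, and its GAS match lay at 90 bases. Over all 31 members with a window, 15 held an ISRE match, against 3.44% of the 32851 RefSeq windows of the same length. Members too low to test held it in 8 of 14 cases, and tested members that were not called held it in 2 of 11. Among those tested, not called and without a match, Irf9, Ifit2 and H2-K1 each had a further window that was not searched. GAS letters were in 8 of the 31 windows, against 8.30% of all windows. A box of the letters CCNCNCCC, a GC-rich form that Kruppel-like factors bind, was in 18 of the 31 and in 49.5% of all windows. It was in the windows of Bst2 and Irf1 and in none of the other 4 called members. These are matches of letters only, and no binding was measured.

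Among the sensors and transcription factors, 4 of 6 members could be tested and 1 was called. Irf1 (ENSMUSG00000018899, chromosome 11, 53770014 to 53778374, plus strand, GRCm38), a transcription factor induced by interferon gamma that acts on class I genes, had 1.47, 2.22 and 4.55 TPM as the lowest, median and highest control. The overexpression libraries 1 to 5 had 5.91, 7.51, 5.13, 4.57 and 4.57 TPM. The groups did not overlap, but the highest control, control 3, lay just under the lowest overexpression libraries. The means were 5.54 ± 1.23 TPM (SD, n = 5) and 2.50 ± 1.12 TPM (SD, n = 6), a ratio of 2.21. The log2 difference was 0.94 ± 0.23 (SE), and limma gave an adjusted p of 0.0303. This call depended on single libraries. It was kept without any one of 5 of the 11 libraries, and the adjusted p became 0.0554, 0.0694 or 0.0692 without control 1, 5 or 6 and 0.0663, 0.0944 or 0.0548 without overexpression library 1, 2 or 3.

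Of the other factors and sensors, Irf9, Stat2 and Irf3 were tested and not called, while Irf7 and Ifih1 were too low to test. Irf9, a DNA-binding partner of STAT2, had 3.34 ± 0.873 TPM (SD, n = 6) in controls and 2.24 ± 0.221 TPM (SD, n = 5) with overexpression, a log2 difference of -0.40 ± 0.20 and an adjusted p of 0.444. It overlaps Rnf31 on the same strand. Stat2 had 6.43 ± 2.93 and 6.50 ± 1.99 TPM, with control 3 highest at 12 TPM. Irf3, which responds to foreign nucleic acid and is made without induction, was the most abundant of these factors at 23.1 ± 5.25 and 25.5 ± 6.60 TPM, and it overlaps Bcl2l12 on the opposite strand. Irf7, which amplifies the response and is itself an interferon target, was listed at 0 in 9 libraries and reached 0.108 TPM. Ifih1, the cytoplasmic double-stranded RNA sensor MDA5, reached 0.167 TPM.

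Among the 12 antiviral effectors, 4 could be tested and 2 were called, both higher. Bst2 (ENSMUSG00000046718, chromosome 8, 71534255 to 71537456, minus strand), the tetherin that holds budding virions at the cell surface, had 10.2, 12.4 and 14.5 TPM as the lowest, median and highest control. The overexpression libraries 1 to 5 had 38.2, 18.2, 24, 34.4 and 24.5 TPM. All 5 lay above all 6 controls, with libraries 1 and 4 highest. The means were 27.9 ± 8.21 TPM (SD, n = 5) and 12.3 ± 1.61 TPM (SD, n = 6), a ratio of 2.27. The log2 difference was 1.08 ± 0.18 (SE), and limma gave an adjusted p of 0.00184.

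Ifitm2 (ENSMUSG00000060591, chromosome 7, 140954837 to 140955987, minus strand), a membrane protein that restricts viral entry, had 13.2, 15.6 and 19.6 TPM as the lowest, median and highest control. The overexpression libraries had 23.8, 42.3, 28.4, 31.6 and 23.3 TPM, all above the controls and with library 2 highest. The log2 difference was 0.84 ± 0.17 (SE), the limma adjusted p was 0.00703, and the means were 29.9 ± 7.71 TPM (SD, n = 5) and 16 ± 2.54 TPM (SD, n = 6). Of the 50-base windows of its transcripts, 48.5% also occur in other genes, and 36.1% occur in Gm45717, which overlaps it on the same strand. Gm45717 was called higher as well, at 24.2 ± 7.39 against 12.5 ± 2.68 TPM and an adjusted p of 0.0194. Where the genes share sequence, their reads cannot be told apart, and the split between them is uncertain. Its close relative Ifitm3 was not called, with 5.63 ± 3.22 TPM in controls and 5.09 ± 0.897 TPM with overexpression.

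The effectors that mark a strong interferon response were near 0 in both groups. Ifit1, which binds viral RNA lacking cap methylation, and Oas1a, which makes the activator of RNase L, were listed at 0 in all 11 libraries. Most of the transcript sequence of Oas1a is shared with a relative, with 57.6% of its 50-base windows found in Oas1g. Mx1 did not exceed 0.0818 TPM, Ifi44 0.110 TPM, Rsad2 0.445 TPM, Oasl2 0.452 TPM, Ifit3 0.619 TPM and Ifi35 1.30 TPM in any library. Ifit3 also shares much of its sequence, with 51.2% of its 50-base windows found in Ifit3b. Ifit2 was the exception in its family, with 6.49 ± 1.16 TPM (SD, n = 6) in controls and 5.38 ± 2.32 TPM (SD, n = 5) with overexpression. Its log2 difference of -0.28 ± 0.22 had an adjusted p of 0.725, and overexpression library 1 was the highest of all at 9.10 TPM.

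Isg15, a ubiquitin-like modifier among the most strongly induced interferon targets, was listed at 0 in 6 libraries and reached 0.991 TPM. Its protease Usp18 was listed at 0 in 10 libraries and reached 0.119 TPM. Cxcl10, a chemokine that attracts T cells, did not exceed 0.842 TPM. The ADP-ribosyltransferase Parp9 and its ubiquitin ligase partner Dtx3l lie head to head and overlap at their ends, and neither was called. Dtx3l had 1.17 ± 0.521 TPM in controls and 1.45 ± 0.692 TPM with overexpression. Parp9, with the smaller p of the pair, had 0.909 TPM as the control median and 1.57 TPM as the highest control, and 1.64, 1.36, 1.96, 0.924 and 0.524 TPM in the overexpression libraries. These ranges overlap, and the log2 difference was 0.18 ± 0.24 with an adjusted p of 0.892. Parp14 did not exceed 0.721 TPM.

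The guanylate-binding proteins, GTPases that act on the vacuoles and membranes of intracellular pathogens, were the members that fell. Gbp3 (ENSMUSG00000028268, chromosome 3, 142560026 to 142573209, plus strand) had 6.23, 12.1 and 13.6 TPM as the lowest, median and highest control. The overexpression libraries 1 to 5 had 1.67, 2.58, 3.14, 1.29 and 1.44 TPM. The lowest control, control 5, stood well apart from the other controls and still above every overexpression library. The means were 2.02 ± 0.799 TPM (SD, n = 5) and 11.3 ± 2.72 TPM (SD, n = 6), and the log2 difference was -2.03 ± 0.23 (SE), and limma gave an adjusted p of 4.58e-05.

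Gbp7 (ENSMUSG00000040253, chromosome 3, 142530342 to 142550149, plus strand) had 3.53, 6.25 and 13.3 TPM as the lowest, median and highest control, with controls 1 and 2 both at 13.3 TPM. The overexpression libraries had 2.27, 1.86, 2.07, 1.64 and 1.80 TPM. These were tightly grouped, whereas the controls spread widely, and the groups did not overlap. The means were 1.93 ± 0.247 TPM (SD, n = 5) and 7.90 ± 4.36 TPM (SD, n = 6), and the log2 difference was -1.47 ± 0.29 (SE), and limma gave an adjusted p of 0.0065. With no filter on low values the adjusted p was 0.0524, and the gene was not called. Gbp2, which did not pass the filter, had 0.789 ± 0.449 TPM in controls and 0.286 ± 0.151 TPM with overexpression, and its ranges overlapped.

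Gbp3 and Gbp7 are neighbours, and a gene outside the family within 250 kb of both was lower too. Gbp2, which was not tested, lies between Gbp3 and that gene. The genes around each called member were read after the values were seen. Within 250 kb of Gbp3, 3 of 6 tested neighbours were called lower and none higher, beside 1.43% of all tested genes called lower. Besides Gbp7 these were Gm43802, a processed pseudogene inside Gbp7, and Kyat3, a kynurenine aminotransferase (chromosome 3, 142701051 to 142746870, plus strand). Gbp7 is itself a called member and Gm43802 shares sequence with it, so these 3 calls are not independent. Kyat3 was at 0.341 ± 0.0791 TPM (SD, n = 5) with overexpression and at 5.27 ± 2.36 TPM (SD, n = 6) in controls, a log2 difference of -2.08 ± 0.33 and a limma adjusted p of 0.00132. Control 1 had 0.832 TPM of Kyat3, near the overexpression libraries, whereas the other controls had at least 5.12 TPM. No overexpression library exceeded 0.414 TPM of Kyat3. It therefore passed the low-value filter only through controls 2 to 6, in the group where it was high. Its adjusted p and its place among the 3 called neighbours are thus a description. Gm43802 had 1.74 ± 1.10 against 7.72 ± 3.05 TPM and an adjusted p of 0.00528, and 10.5% of the 50-base windows of Gbp7 also occur in it. The other 3 were not called: Pdlim5 differed by -0.23, Gtf2b by -0.05 and Pkn2 by 0.09 on the log2 scale, with adjusted p of 0.634, 0.962 and 0.907. The sources used here do not name the mouse strain of each embryo.

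**Figure D3:**
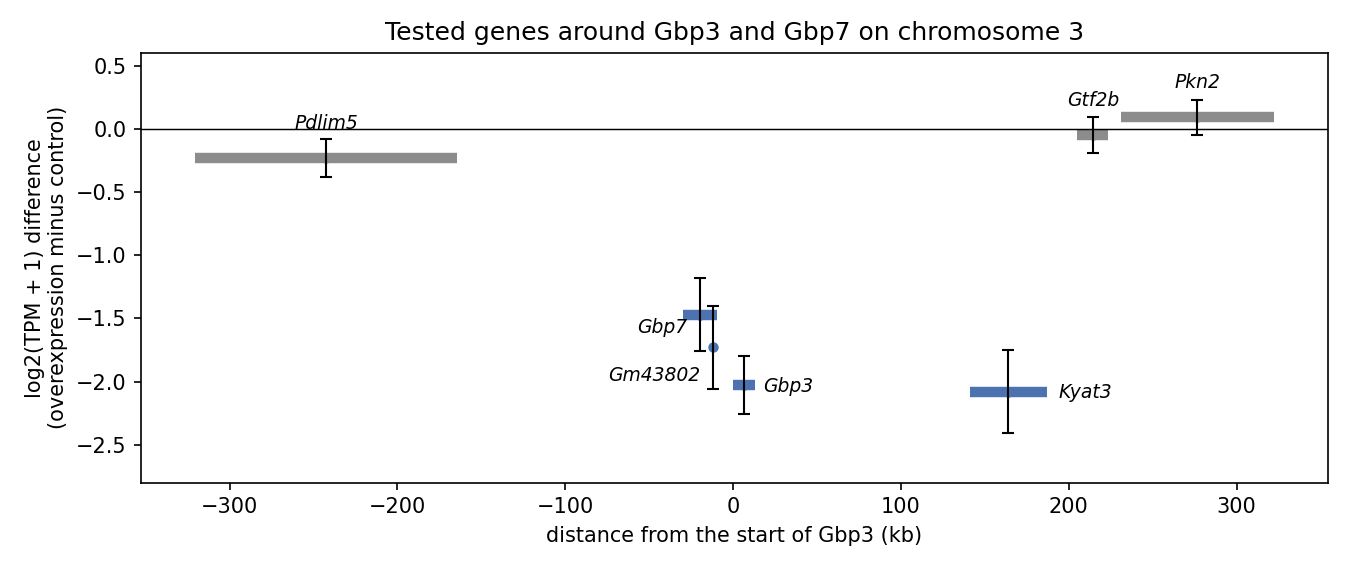
Tested genes around Gbp3 and Gbp7 on chromosome 3, drawn as bars over their extent in kb from the start of Gbp3, at their log2(TPM + 1) difference with its SE (5 overexpression against 6 control libraries), blue where called lower and grey where not called. The 4 blue genes lie between -1.47 and -2.08, and the 3 grey ones between -0.23 and 0.09.

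Around the 4 members that rose, 3 of 46 tested neighbours were called, or 6.52%, beside 3.72% of all tested genes. No tested gene within 250 kb of Irf1 was called, of 4. Of 20 tested genes around Bst2 only Plvap, a protein of vessel wall diaphragms, was called, at 17.0 ± 4.03 against 8.56 ± 2.67 TPM with an adjusted p of 0.0156. Of 15 around Ifitm2 only the overlapping Gm45717 was called. Of 7 around B2m only Shf, an adaptor protein, was called, at 19.9 ± 1.76 against 9.65 ± 2.32 TPM with an adjusted p of 0.00181.

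All 3 class I members were well above the filter, and the light chain was called. B2m (ENSMUSG00000060802, chromosome 2, 122147686 to 122153083, plus strand) had 58.4, 75.8 and 80.1 TPM as the lowest, median and highest control. The overexpression libraries 1 to 5 had 102, 116, 97.3, 108 and 83.8 TPM. Every one lay above every control, with library 5 nearest to them. The means were 101 ± 11.9 TPM (SD, n = 5) and 72.4 ± 8.09 TPM (SD, n = 6), a ratio of 1.40. The log2 difference was 0.48 ± 0.12 (SE), and limma gave an adjusted p of 0.0305. The call was kept without any one of 3 of the 11 libraries; the adjusted p became 0.0624, 0.0597, 0.0679 or 0.051 without control 1, 3, 5 or 6, and 0.0532, 0.0851, 0.0575 or 0.0864 without overexpression library 1, 2, 3 or 4.

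The heavy chains were not called. H2-K1 (chromosome 17, 33996017 to 34000347, minus strand) had 43.5 ± 3.94 TPM (SD, n = 6) in controls and 37.7 ± 8.75 TPM (SD, n = 5) with overexpression, a log2 difference of -0.23 ± 0.15 and an adjusted p of 0.626. H2-D1 (chromosome 17, 35262730 to 35267499, plus strand) had 12.9, 14.2 and 19.7 TPM as the lowest, median and highest control and 19.5, 13.1, 19.2, 23.9 and 18.6 TPM with overexpression, a log2 difference of 0.26 ± 0.17 and an adjusted p of 0.628. Class I genes resemble each other, and 9.63% and 12.8% of the 50-base windows of H2-K1 and H2-D1 occur in other genes, so their split is uncertain. The ratio of B2m to the sum of both heavy chains in TPM was 0.919 to 1.39 in the controls and 1.49 to 2.80 with overexpression, a description chosen after the values were seen.

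The peptide loading members were tested and none was called. Tap1, a subunit of the transporter that carries peptides into the endoplasmic reticulum, had the smallest p of the 3. It had 1.05, 1.64 and 3.57 TPM as the lowest, median and highest control and 2.52, 3.12, 2.34, 3.16 and 1.67 TPM in the overexpression libraries. The ranges overlapped, with a log2 difference of 0.27 ± 0.24 and an adjusted p of 0.785. Its partner subunit Tap2 had 1.62 ± 0.655 and 1.72 ± 0.392 TPM. Tapbp, the tapasin that bridges the transporter and the class I molecule, had 8.37 ± 2.15 and 8.77 ± 2.34 TPM.

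The immunoproteasome subunits replace constitutive catalytic subunits after interferon exposure, and 1 of 3 could be tested. Psmb10 had 8.36, 9.10 and 13.9 TPM as the lowest, median and highest control and 16.5, 12.2, 10.6, 5.95 and 9.43 TPM with overexpression. Both the highest and the lowest library were overexpression libraries, and the log2 difference was 0.10 ± 0.21 with an adjusted p of 0.939. Psmb8 did not exceed 0.821 TPM and Psmb9, which overlaps Tap1 on the opposite strand, 0.220 TPM. The 3 subunits summed to 8.48 to 14.1 TPM in the controls and 6.18 to 16.5 TPM with overexpression. The constitutive counterparts Psmb5, Psmb6 and Psmb7 summed to 680 to 834 and 547 to 837 TPM.

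**Figure D4:**
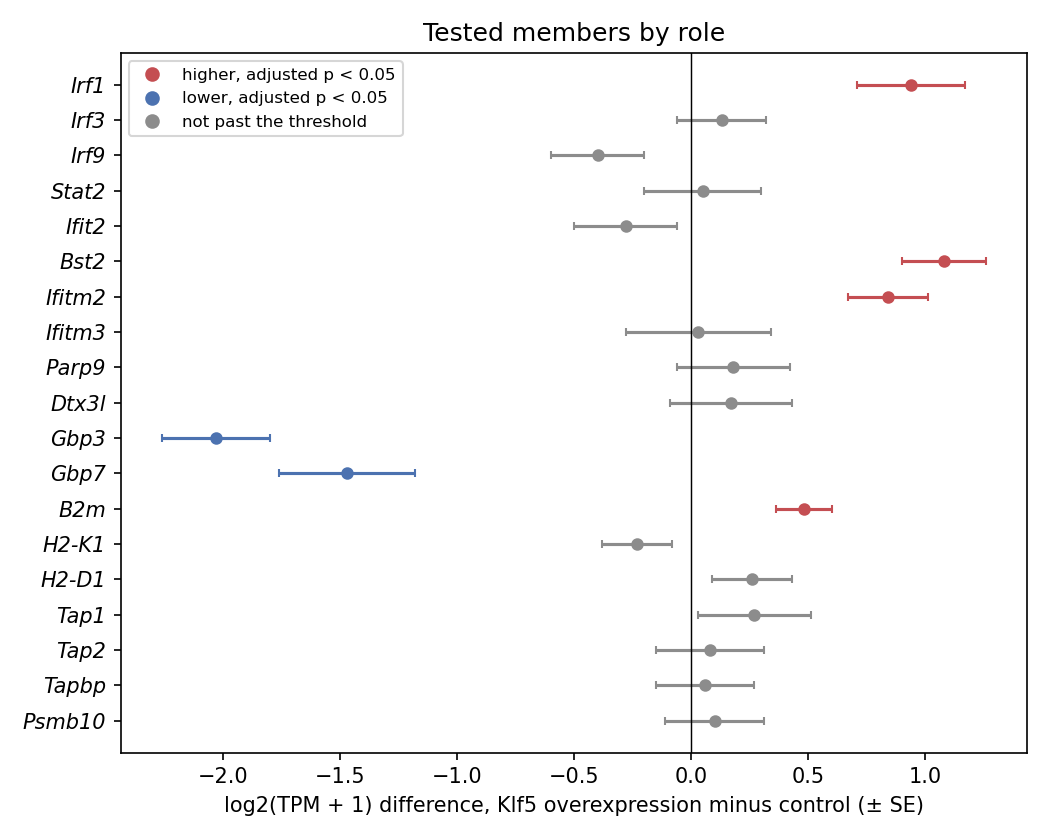
Difference in log2(TPM + 1) with its SE for the 19 tested members in order of role, Klf5 overexpression (n = 5) minus control (n = 6), coloured by call. The 6 called members run from -2.03 for Gbp3 to 1.08 for Bst2, and the 13 others lie between -0.40 and 0.27.

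The 17 members that did not pass the filter were also fitted without it, where 15 had any value above 0. None was called by limma, and 2 had an unadjusted p under 0.05: Rsad2 with an adjusted p of 0.365 and Gbp2 with an adjusted p of 0.389.

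The rest of the pathway showed no called gene. A further list of 113 genes covered the interferons, their receptors and kinases, the other STAT, IRF and SOCS factors, nucleic acid sensors, effectors, GTPases, class I and class II genes and the proteasome. Of these, 48 could be tested and limma called 0, with 1 at an unadjusted p under 0.05. The median log2 difference was -0.02, with 23 above 0 and 25 below. The gene with the unadjusted p under 0.05 was Il10rb, a receptor chain shared by interleukin 10 and interferon lambda, which had 1.49 ± 0.618 TPM (SD, n = 6) in controls, 3.66 ± 1.5 TPM (SD, n = 5) with overexpression and a limma adjusted p of 0.0728.

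The ligands Ifnb1, Ifng, Ifna4 and Ifnl3 were listed at 0 in every library. Of the 9 receptors and kinases 8 could be tested, and Ifnlr1, the interferon lambda receptor chain, was listed at 0 throughout. The most abundant, Ifnar1, a chain of the type I interferon receptor, had 35.5 ± 5.71 TPM in controls and 30.3 ± 5.58 TPM with overexpression. Of the 10 other STAT, IRF and SOCS genes 3 could be tested, with Irf2, a factor that opposes Irf1 at many targets, most abundant at 10.1 ± 1.33 and 12.7 ± 2.61 TPM. Of the 13 nucleic acid sensing genes 10 could be tested. The kinase Tbk1 was highest of these in controls, at 15.3 ± 3.42 TPM, with 14.3 ± 4.23 TPM under overexpression, where Adar, an RNA-editing enzyme, stood at 15.1 ± 4.33 TPM.

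Downstream, 11 of 41 other effectors could be tested, and the most abundant was Eif2ak2, the RNA-activated kinase PKR, at 9.52 ± 2.63 TPM in controls and 9.70 ± 1.95 TPM with overexpression. Among the 13 other guanylate-binding and immunity-related GTPases only Irgm1 could be tested, at 2.50 ± 1.06 and 3.48 ± 1.37 TPM with an adjusted p of 0.692. Of the 12 other class I and loading genes 8 could be tested, and the chaperone Calr led with 289 ± 48.8 and 291 ± 45.3 TPM. All 5 proteasome genes could be tested, with Psmb6 at 268 ± 28.4 and 236 ± 32.1 TPM. In class II, 2 of 6 genes could be tested, and H2-DMa had 2.78 ± 1.18 and 1.64 ± 1.52 TPM with an adjusted p of 0.576.

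Immune cells express many of these genes, so markers of other cell types were summed in each library. The 15 microglia and macrophage markers summed to 0.528 to 3.26 TPM in the controls and 0.834 to 3.04 TPM with overexpression. Aif1, Cx3cr1, C1qa, C1qb, C1qc and Tyrobp were listed at 0 in all 11 libraries, and 13 of the 15 stayed under 1 TPM in every library. P2ry12 and Cd68 did not, and both were above 0 in all 11 libraries. P2ry12 had 0.405 ± 0.206 TPM in controls and 0.701 ± 0.731 TPM with overexpression, highest at 1.99 TPM in overexpression library 4. Cd68 had 1.30 ± 1.07 and 1.10 ± 0.777 TPM, and its highest library was control 6 at 2.86 TPM. The 7 lymphoid markers summed to at most 0.495 and 0.637 TPM, with 5 of them at 0 throughout. The 9 endothelial markers summed to 0.817 to 2.82 and 0.875 to 2.43 TPM. Plvap, the vessel wall gene near Bst2, is not on this list. It had 8.56 ± 2.67 TPM in controls and 17.0 ± 4.03 TPM with overexpression, and was called higher. The 9 mural and mesenchymal markers summed to 1.07 to 5.76 and 1.24 to 3.07 TPM, the 6 choroid plexus and ependymal markers to 5.80 to 9.77 and 6.35 to 10.2 TPM, and the 6 erythroid markers to at most 0.833 and 0.166 TPM. The 8 neural stem and progenitor markers summed to 4599 to 7649 TPM in the controls and 3620 to 5604 TPM with overexpression. Exact two-sided permutation tests of the summed TPM gave p of 0.119 to 0.920, and adjusted p of 0.689 to 0.920 over the 7 lists. A sum follows its most abundant gene, and single markers within these lists were called. In the choroid plexus and ependymal list Foxj1 made up most of the sum, at 7.82 ± 1.36 TPM in controls and 5.10 ± 1.81 TPM with overexpression. Aqp1, a water channel of that list, rose from 0.242 ± 0.253 TPM to 2.84 ± 1.67 TPM, with a limma adjusted p of 0.00343. Only the 5 overexpression libraries reached 1 TPM of Aqp1, so it passed the filter through the group where it was high. Its adjusted p and the lack of overlap between groups are therefore a description. Folr1 and Kcne2 were listed at 0 in all controls and reached 0.578 and 0.338 TPM with overexpression, and Ttr was listed at 0 in all 11 libraries. Among the neural stem and progenitor markers Fabp7 made up most of the control sum, at 3596 ± 1073 TPM against 2105 ± 553 TPM with an adjusted p of 0.069. Vim rose from 1075 ± 72.5 to 1572 ± 307 TPM (adjusted p 0.0365). Slc1a3 fell from 152 ± 20.7 to 90.8 ± 23.4 TPM (adjusted p 0.00892) and Msi1 from 27 ± 2.88 to 17.4 ± 5.39 TPM (adjusted p 0.0433). The part of these marker changes in the members' results was not tested. In these bulk libraries, fewer cells of a type and less RNA per cell cannot be told apart.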

How the data were processed

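RNA sequencing values of primary neurospheres from 6 control and 5 Klf5 overexpression mouse embryos were used, each library taken as 1 embryo. Whether the embryos shared a litter is not given, so p-values measure the spread between these libraries. The authors deposited 1 table of TPM with 1 column per library. HISAT2, StringTie, HTSeq, DESeq2 and GRCm38.p5 are listed in the submitters' processing notes, without versions or order; the sources used here do not give the annotation release or the strand setting. Per the labels' protocols, 2 library kits were used, and which library had which kit is not given, so a kit difference between groups cannot be told apart from the treatment. Symbols were matched for 53255 of 53453 rows, and 25352 rows were 0 in every library. Coordinates, counted from 1, come from GENCODE M21 on GRCm38.

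The main test was limma 3.58.1 (R 4.3.3) on log2(TPM + 1), with a pseudocount of 1, a mean-dependent variance trend, no covariate, a filter of 1 TPM in at least 5 libraries and Benjamini-Hochberg adjustment at 0.05 over 13549 genes. The code was tested on simulated data. Marker sums were compared by exact permutation (Python 3.11.15, scipy 1.17.1), where the smallest possible p is 0.00216. Shared sequence was counted in 50-base windows of annotated transcripts. The alternatives tried were trimmed-mean scaling, quantile normalization, removal of ribosomal RNA-like rows, a pseudocount of 0.1, the low-value filter at 5 TPM or left off, array weights, no variance trend, a replicate block, the same 10 libraries without it, and dropping each of the 11 libraries in turn. The members and lists were chosen with earlier results of these data known. All 36 members are accounted for; full values are given for those past the threshold and, where a role group with tested members had none, for the one with the smallest p. Further pathway genes are the most abundant of each list.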

Additional observations from a re-analysis of the deposited data

Results flagged for a closer look

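In the control group, control 3 had 13.9 TPM of Psmb10, far from the other 5 controls, which lay between 8.36 and 9.62 TPM. Its gap to the nearest control was larger than expected for a single group of 6 by Dixon's test. The test was run on 38 pairs of a tested member and a group, and chance marks about 1 in 20 such pairs.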

How the results depend on the processing

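Bst2, Ifitm2 and Gbp3 were called in every alternative run and without each of the 11 libraries. Gbp7 was called without each library, was not called with no filter (adjusted p 0.0524) and was not tested at 5 TPM. Irf1 was called in 5 of the 9 other alternatives that tested it, and B2m in 6 of 10. Both missed the threshold with no filter (0.104 and 0.0521), the replicate block (0.0807 and 0.0551) and the same 10 libraries without it (0.0692 and 0.051); Irf1 also missed it with array weights (0.0847) and B2m with no variance trend (0.0731). So 2 members were called higher with no filter, with the replicate block and with the same 10 libraries without it, and 1 was called lower with no filter and with a filter of 5 TPM. Without a single library, 2 to 4 members were called higher and 2 lower. Over all genes, 194 were called lower, against 95 with no filter, 302 with trimmed-mean scaling, 311 with quantile normalization and 123 to 213 without a single library, lowest without overexpression library 2. Among further pathway genes 1 was called higher with no variance trend, Il10rb (0.047). The cause of these shifts was not tested. Replicate numbers are shared between groups, and the deviations of same-numbered libraries correlated at 0.30, 0.06, -0.01, -0.04 and 0.02. Only for number 1 was the same-numbered control the best match. Such a correlation cannot exclude a shared litter, so whether the numbers pair the libraries is unknown. With the replicate block 283 genes were higher and 137 lower, against 278 and 130 in the same 10 libraries without it. Members listed near 0 TPM are limited by depth, which is unknown.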
